A study of Homo sapiens with 2 samples.

Results

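To ask whether LDB1 sat at genes of basophils, mast cells and eosinophils in acute myeloid leukemia cells, the deposited LDB1 peaks were searched at 10 genes of these lineages. The genes were HDC, CPA3, FCER1A, MS4A2, TPSAB1, HPGDS, PRG2, CLC, EPX and IL5RA, and a peak was counted when it overlapped the GENCODE release 44 body of a gene extended by 10 kb on each side. Of 11046 peaks, 4 met this rule, and 2 of the 10 genes had one. The peaks came from CUT&Tag, in which an antibody directs a transposase that cuts and tags the DNA nearby. The cells were NB4, a human acute promyelocytic leukemia line. The series held 2 libraries, 1 with the LDB1 antibody, labelled as LDB1 overexpression, and 1 with IgG, labelled as untreated, so antibody and treatment differed together. Each group had 1 library, so there was no replicate and no test was made. The list gives a position and a length for each peak and no height, and the depth behind a peak is unknown.

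Basophils, mast cells and eosinophils are granulocyte lineages of allergy and of defence against parasites. GATA1 and GATA2 are needed for their formation, as GATA1 is for red cells and platelets. LDB1 does not bind DNA itself. It forms a complex with LMO2, a GATA factor and an E-box factor such as TAL1. The complex is best known at an E-box remnant that stands a fixed distance from a GATA motif. NB4 cells are arrested at the promyelocyte stage of the neutrophil lineage, which separates from these lineages early.

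HDC, the enzyme that makes histamine, had 3 peaks, and PRG2, which encodes the major basic protein of eosinophil granules, had 1. Sequence around GATA motifs in these 4 peaks is shown first, since GATA factors are DNA-binding partners of LDB1. Letters are the plus strand of hg38, read 5′ to 3′. Capitals mark the GATA motif (AGATAA or AGATAG, and likewise TGATAA or TGATAG, on either strand, so that TTATCT is the same motif seen from the opposite strand) and the CTG, or CAG from the other strand, of a composite with 7 or 8 bases between both parts. Each stretch has 30 bases on either side of its outermost capitals.
HDC long peak, chr15:50260660-50260736: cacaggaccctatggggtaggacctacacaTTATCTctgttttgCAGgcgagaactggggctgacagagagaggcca
HDC long peak, chr15:50261347-50261420: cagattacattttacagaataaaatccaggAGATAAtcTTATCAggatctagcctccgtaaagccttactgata
HDC short peak, chr15:50259488-50259638: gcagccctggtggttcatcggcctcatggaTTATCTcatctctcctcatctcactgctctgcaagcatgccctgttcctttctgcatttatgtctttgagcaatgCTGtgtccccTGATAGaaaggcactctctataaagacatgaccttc
HDC peak nearest the TSS, chr15:50262357-50262422: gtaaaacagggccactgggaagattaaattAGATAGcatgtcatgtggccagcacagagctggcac
PRG2 peak, chr11:57396018-57396083: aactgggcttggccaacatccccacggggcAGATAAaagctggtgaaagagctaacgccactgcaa
PRG2 peak, chr11:57396384-57396489: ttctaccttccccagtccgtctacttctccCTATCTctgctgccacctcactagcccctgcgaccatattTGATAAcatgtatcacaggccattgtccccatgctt

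The first stretch of the long HDC peak holds a whole composite, with 8 bases between its parts, in the orientation of the minus strand, on which HDC is read. The stretches shown do not cover all motifs of the long peak: they hold 3 of its 8 GATA motifs and 1 of its 3 composites. The short HDC peak ends within another composite, with 7 bases between its parts, which runs 2 bases past the edge and was not counted. The PRG2 peak has 3 GATA motifs and no composite.

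HDC (ENSG00000140287.11, chr15:50241947-50265965, minus strand) has 12 exons in its canonical transcript, and all 3 peaks lay in intron 2. The one nearest the canonical TSS, chr15:50262228-50262881, was 654 bp long with its midpoint 3172 bp downstream of that TSS. The long peak, chr15:50259874-50261564, was 1691 bp long at 5007 bp. The short peak, chr15:50259294-50259606, was 313 bp long at 6276 bp. The 3 peaks thus stood close together, 663 and 267 bp apart, and spanned 3588 bp in all. None covered an exon base of the canonical transcript. Another annotated start of HDC lies 761 bp from the midpoint of the first peak, so the peaks are intronic for the canonical transcript and nearer the start of another. Of 20015 protein-coding genes, 5.64% had 3 or more peaks in windows of this kind.

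By length, the long HDC peak ranked 266 of 11046, and 97.6% of all peaks were shorter. The peak nearest the TSS was longer than 73.8% and the short one longer than 24.6% of all peaks. The central 31 bases of each occur once in hg38. The median length over the 4 peaks was 740 bp, compared with 451 bp over all peaks, and the values spread from 313 to 1691 bp.

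**Figure D1:**
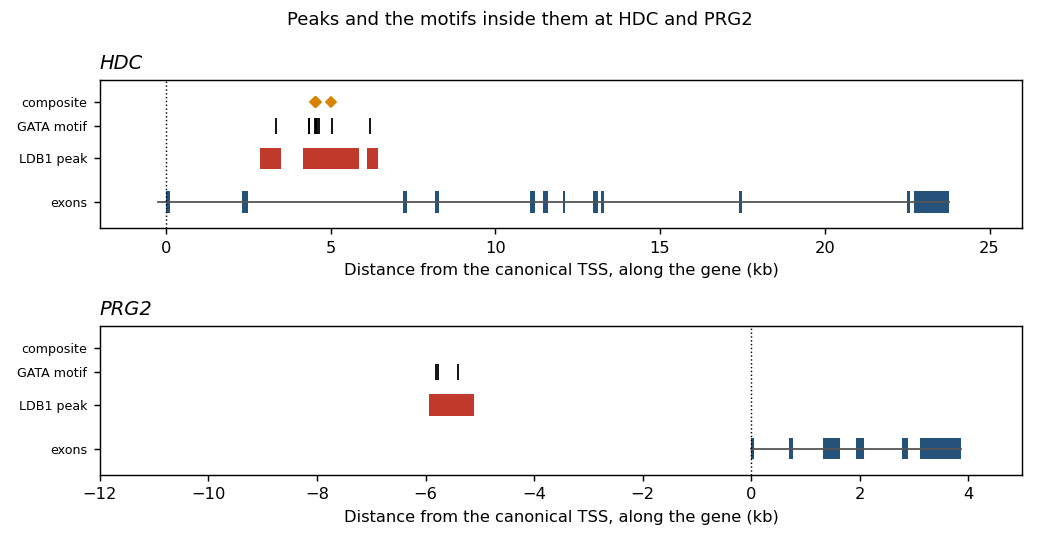
Peaks (red bars), GATA motifs (black ticks) and composites (orange diamonds) at HDC and PRG2 against the distance from the canonical TSS along the gene in kb, with the exons of the canonical transcript in blue. The 3 HDC peaks sit between the second and the third exon, with all 3 composites in the long peak, and the PRG2 peak sits upstream of the gene.

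The long HDC peak held 8 GATA motifs and 3 composites. Among 195 peaks whose length was within 10% of it, the median was 3 GATA motifs. At least 8 GATA motifs were in 7.69% of the 195, and at least 3 composites in 1.03%. Each such set of peaks of like length, here and below, includes the peak itself. Over the whole list 15 peaks (0.136%) had 3 or more composites, and 6 of them were longer than the HDC peak. The other HDC peaks had 1 GATA motif each, as 84.1% and 58.2% of peaks of like length had at least 1. Per kb, the long peak held 4.73 GATA motifs, the short one 3.19 and the one nearest the TSS 1.53, compared with 2.64 over all peaks.

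PRG2 (ENSG00000186652.10, chr11:57386780-57390650, minus strand) had its peak upstream, at chr11:57395757-57396582. It was 826 bp long, and its midpoint was at -5519 bp from the TSS and its near edge 5107 bp from the gene. The peak also lay in intron 2 of a longer protein-coding gene without a symbol (ENSG00000254979.5), which overlaps PRG2 and is read from the same strand. PRG2 has the nearest protein-coding TSS, but the list cannot say which gene the region serves. Its 3 GATA motifs compare with a median of 2 in 758 peaks of like length, and 37.9% of these held 3 or more.

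**Figure D2:**
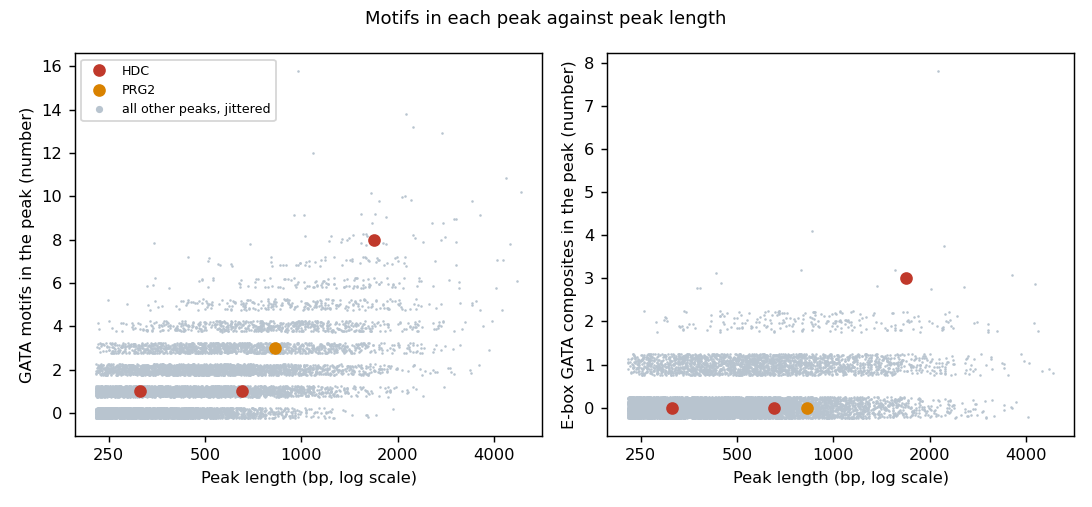
Number of GATA motifs (left) and composites (right) in each peak against peak length in bp on a log axis, with 1 point per peak and vertical jitter on the grey points only. The long HDC peak, with 8 GATA motifs and 3 composites, lies above most peaks of its length, while the other HDC peaks and the PRG2 peak lie within the mass of points.

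In windows of 200 bp around the midpoint, 2 of the 4 peaks (50%, Wilson 95% interval 15 to 85%) had a GATA motif, compared with 47.1% of all peaks and 27.6% of windows 1000 bp to either side. Counted over the whole peak, 4 of 4 had one, as did 71.4% of all peaks. The composite was in 1 of 4 central windows, compared with 11.1% of all peaks and 1.63% of the flanking windows. With 4 peaks the intervals are too wide to tell these shares from those of all peaks. The intervals cover counting error only.

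The centre of the long HDC peak had 3 RUNX motifs (TGTGGT or TGCGGT), a motif present at least once in 20.5% of all central windows. The E-box of MITF (CACGTG or CATGTG), a factor of mast cells, was in the centre of the PRG2 peak and in 18.4% of all central windows. The STAT motif (TTCNNNGAA) was in the centre of the PRG2 peak and of the HDC peak nearest the TSS, and in 5.44% of all central windows. The TAL1 E-box (CAGATG or CAGCTG) was in the centre of the PRG2 peak and in 33.8% of all. The CEBP motif (TTGCNNAA) and the AP-1 motif (TGAGTCA, or TGACTCA from the other strand) were in none of the 4 centres, compared with 7.44% and 9.48% of all. In the flanking windows the shares were 16.6% for RUNX, 14.4% for the MITF E-box and 22.2% for the TAL1 E-box. They were 5.84% for STAT, 9.13% for CEBP and 3.6% for AP-1, so STAT and CEBP were no more frequent at peak centres than beside them. Over the whole peak, the TAL1 E-box and the MITF E-box were each in 3 of the 4, the RUNX, CEBP and STAT motifs each in 2, and the AP-1 motif in 1. For these motifs the share over all whole peaks was not counted, so the whole-peak counts have no background. The 4 peaks were also longer than most, with a median of 740 bp compared with 451 bp over all peaks. A match describes the letters and is not proof of binding.

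The other 8 genes had no peak within 10 kb. Among them were both receptor chains for IgE that were searched. FCER1A, the alpha chain, was 210 kb from its nearest peak, which lay nearest the TSS of AIM2. MS4A2, the beta chain, was 31.6 kb from its nearest peak. That peak, chr11:60056347-60056624 (278 bp), had its midpoint 180 bp from the TSS of MS4A3, a gene of the same family that marks early granulocytes. IL5RA, the alpha chain of the interleukin-5 receptor, was 65.4 kb from its nearest peak. These receptor genes thus had no called peak within 10 kb. The same held for 14984 of 20015 protein-coding genes, so it is not read as a trait of receptors.

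The mast cell proteases also lacked a peak within 10 kb. CPA3, carboxypeptidase A of mast cell granules, was 188 kb from a peak, and TPSAB1, a tryptase, 286 kb, the largest gap of the 10. TPSAB1 belongs to a cluster of near-identical genes, and 87.3% of its body positions begin a 31-base word that occurs more than once in hg38, compared with 3.41 to 27.2% in the other 9 genes. Reads from such sequence are hard to place, and whether this bears on the missing peak was not tested. Of the eosinophil genes, EPX, the peroxidase, was 158 kb and CLC, the Charcot-Leyden crystal protein, 109 kb from a peak. HPGDS, which makes prostaglandin D2, was 190 kb from one.

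The nearest peaks lay closest to the TSS of other genes. These were HLTF for CPA3 (425 bp), FBL for CLC (827 bp), TMEM204 for TPSAB1 (5120 bp), SUPT4H1 for EPX (12019 bp), CRBN for IL5RA (12618 bp) and PDLIM5 for HPGDS (80778 bp), with AIM2 for FCER1A at 3013 bp. Other protein-coding genes that reached into the windows were SLC27A2 and GABPB1 at HDC, PRG3 at PRG2, CPB1 at CPA3, OR10J3 at FCER1A, SMARCAD1 at HPGDS, MKS1 at EPX, and CNTN4 and TRNT1 at IL5RA.

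The median gap from gene body to nearest peak was 134 kb over the 10 genes and 66.9 kb over 19970 protein-coding genes on chromosomes with a peak. The gap was above that median in 6 of the 10. For TPSAB1, 79.2% of protein-coding genes had a nearer peak, and for MS4A2 37.6% had one. A peak lay on the body of 1 of the 10 genes and of 16.6% of all.

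**Figure D3:**
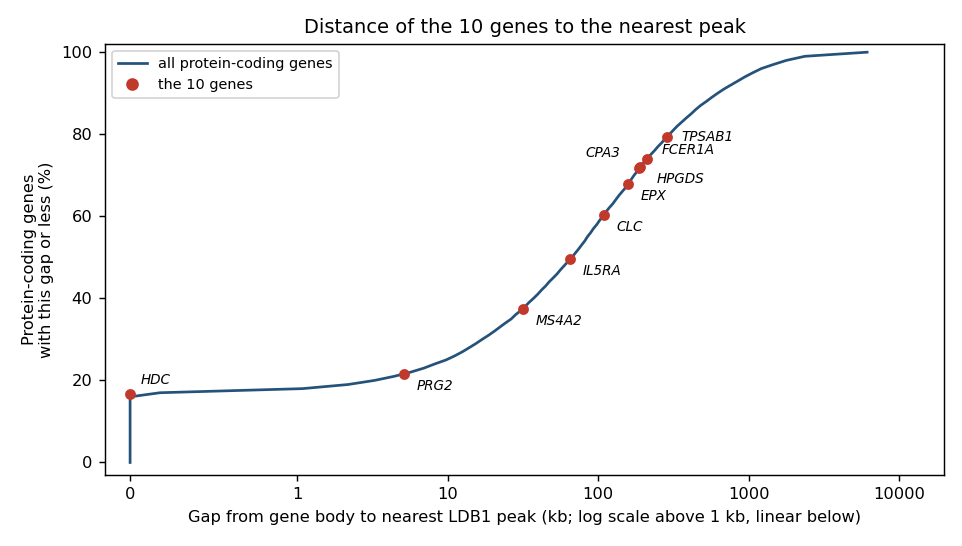
Gap from gene body to the nearest LDB1 peak in kb (log scale above 1 kb) for all protein-coding genes (blue line, cumulative percent) and for the 10 genes (red points). HDC stands at a gap of 0 and PRG2 at 5.11 kb, and the other 8 genes lie between 31.6 and 286 kb.

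Of all protein-coding genes, 25.1% had a peak within 10 kb of their body, and of the 10 genes 2 did (20%, interval 5.67 to 51.0%). The share is near that of all genes, and with 10 genes the interval is too wide to tell the 2 shares apart. Having or lacking a peak is thus not read as a property of the list. Windows around short genes are short, and the share over all genes rose with body length from 17.2% under 10 kb and 23.8% from 10 to 25 kb to 25.6% from 25 to 50 kb and 31.7% above. The 10 genes had a median body of 15.5 kb, compared with 27.5 kb over all protein-coding genes. HDC, with 24.0 kb, was 1 of 4 members from 10 to 25 kb, and PRG2, with 3.87 kb, was 1 of 3 under 10 kb. The 4 peaks in 0.415 Mb of windows make 9.65 per Mb, compared with 5.04 in all protein-coding windows. This density rests on the cluster at HDC, since it was 4.82 per Mb once peaks less than 1 kb apart were merged.

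**Figure D4:**
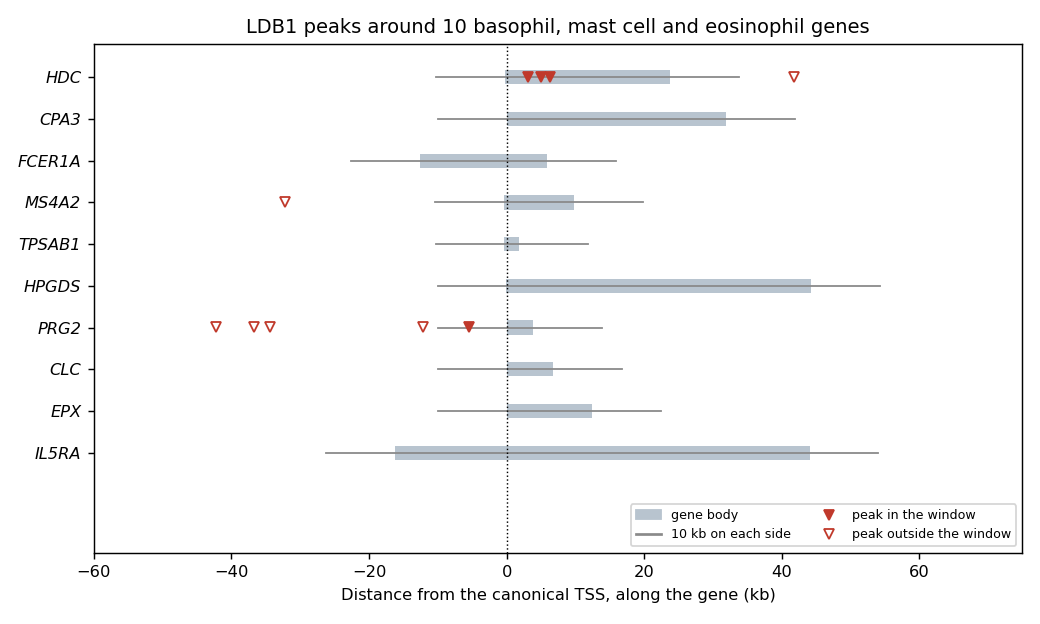
The 10 genes drawn along the distance from the canonical TSS in kb, with the gene body as a grey bar, the window of 10 kb on each side as a line, and peaks as triangles at their midpoints, not drawn to length. Filled triangles stand at HDC and PRG2 only, and open triangles mark 6 further peaks outside the windows of HDC, MS4A2 and PRG2.

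Just outside the windows, with 50 kb on each side, 6 more peaks were found and 1 more gene, MS4A2. HDC gained chr15:50223826-50224158 (333 bp), 17789 bp beyond its end, with 1 composite. PRG2 gained 4 peaks between 11924 and 42024 bp from its body, 3 of which had SLC43A3 as their nearest protein-coding TSS. None of these 4 had a composite.

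GATA motifs were present at every gene without a peak, and composites at all of these but TPSAB1. Both are common, since all protein-coding windows held 3461958 GATA motifs and 115022 composites in 1512.2 Mb. The windows of the 10 genes covered 0.415 Mb, and the presence of motifs there is not read as a trait of these genes. The 10 windows held 996 GATA motifs, from 22 at TPSAB1 to 172 at IL5RA, and 13 of these (1.31%) lay in a peak, compared with 0.32% of those in all protein-coding windows. Of the 13, 8 lay in the long HDC peak alone, so this share rests largely on 1 peak and does not describe the 10 genes. They held 36 composites. Most were at IL5RA with 7, and at HDC, CPA3 and HPGDS with 6 each, followed by MS4A2 with 4, FCER1A with 3, PRG2 with 2, CLC and EPX with 1 each and TPSAB1 with 0. The windows ran from 22176 bp at TPSAB1 to 80290 bp at IL5RA, and these counts were not adjusted for length or base content. Of the 36, 3 (8.33%) lay in a peak, all in the long HDC peak, compared with 1.61% over all protein-coding windows. HDC, CPA3 and HPGDS thus had equal numbers of composites, in windows of 44019, 51908 and 64342 bp. Of the 6 at HDC, 3 lay in a called peak. CPA3 and HPGDS had no peak in their windows, so none of their composites could lie in one. The genes are therefore not compared on this count.

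Promoter sequences (250 bases before to 50 after the start, RefSeq, GRCh38.p14) were found for 7 of the 10 genes. None was available for TPSAB1, PRG2 and EPX. The RefSeq starts of CPA3 and CLC coincide with the GENCODE gene start, and those of the other 5 lie inside the GENCODE body, so these windows need not be the promoter of the longest transcript. A GATA motif was present in 6 of the 7, compared with 25% of 35116 promoters. HDC was the one without. With only 7 promoters this contrast was not tested, and it was not adjusted for base content. The promoter of CPA3 had the only composite, which occurs in 1.34% of all promoters. It is shown because it holds this element while the nearest peak is 188 kb from the gene. Its GATA motif begins at position -45 from the start, 7 bases after CTG, and a further GATA motif begins at -173. The sequence is that of the plus strand, from which CPA3 is read.
CPA3 promoter, chr3:148865046-148865345: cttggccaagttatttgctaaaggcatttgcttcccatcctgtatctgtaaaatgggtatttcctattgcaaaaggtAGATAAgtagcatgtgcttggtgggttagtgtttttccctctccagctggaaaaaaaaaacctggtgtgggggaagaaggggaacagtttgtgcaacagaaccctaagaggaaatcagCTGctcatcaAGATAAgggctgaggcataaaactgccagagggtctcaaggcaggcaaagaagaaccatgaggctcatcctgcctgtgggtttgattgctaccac

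To place the 10 genes among others of these lineages, 44 further genes were searched in the same way. Of these, 13 (29.5%, interval 18.2 to 44.2%) had a peak, compared with 25.1% of all protein-coding genes. The 13 were unevenly spread over the roles of the genes. The role lists were chosen with earlier results of these data known, so the intervals cover counting error and not the choice of genes. Among transcription factors 6 of 9 had a peak (66.7%, interval 35.4 to 87.9%), with 28 peaks in all. Among granule proteins 0 of 9 had one, which allows a share of up to 29.9% by the upper limit of the interval. The granule list includes tryptase genes that lie beside TPSAB1 in its cluster of near-identical genes. Repeated sequence was not counted for this list. Granule protein genes are short, with a median body of 2.91 kb, compared with 13.8 kb for the factors, and this was not adjusted for.

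CEBPE, a factor of neutrophil and eosinophil granule genes, had 8 peaks, the most of the list, of which 2 lay on the gene body. Its longest was 3034 bp. GATA1, which is needed for eosinophils and mast cells, had 6 peaks, 4 of them on the body, with a GATA motif in each. STAT5A, which acts below the receptors for interleukin-3 and interleukin-5, also had 6 in its window, but 0 on its body, and the nearest was centred 24325 bp from the TSS. GATA2 and MITF were named after their values were seen. Each had 3 peaks with a GATA motif in each. All 3 at GATA2 had a composite, and 1 at MITF did. STAT5B had 2 peaks, and CEBPA, IKZF2 and XBP1 had none. A GATA motif was in 5 of the 8 peaks at CEBPE, 5 of the 6 at STAT5A and 1 of the 2 at STAT5B. Composites were in 2 peaks at CEBPE, 3 at GATA1, and 0 at STAT5A and STAT5B. Over all peaks, counted over the whole peak, 71.4% had a GATA motif and 22.4% a composite. These counts describe the windows, and the difference between roles was not tested.

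Among receptors 3 of 11 had a peak (27.3%). IL1RL1, the receptor of interleukin-33, had 1 peak of 463 bp in its body. IL3RA, the alpha chain for interleukin-3, had 1 of 351 bp with a composite. PTGDR2, a receptor for prostaglandin D2, had 1 of 529 bp, centred at -8224 bp from its TSS. KIT, the stem cell factor receptor that mast cells depend on, and FCER1G, the gamma chain of the IgE receptor, had none. All 3 chains of that receptor were thus without a peak in these windows, but FCER1G was named after its value was seen. Of 20015 protein-coding genes, 14984 had none either, so the absence is not read as a trait of the receptor.

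Among genes of mediator synthesis and storage 2 of 8 had a peak (25%). PTGS1, which acts before HPGDS in making prostaglandin D2, had 1 of 764 bp with a composite. SLC18A2, which loads histamine into granules, had 1 of 241 bp, 758 bp from its TSS. Among surface proteins 2 of 7 had a peak (28.6%), SIGLEC6 with 5 and SIGLEC8 with 4, which stand in the same gene cluster on chromosome 19 and shared no peak. Of these peaks, 2 lay on the body of SIGLEC6 and 0 on that of SIGLEC8.

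**Figure D5:**
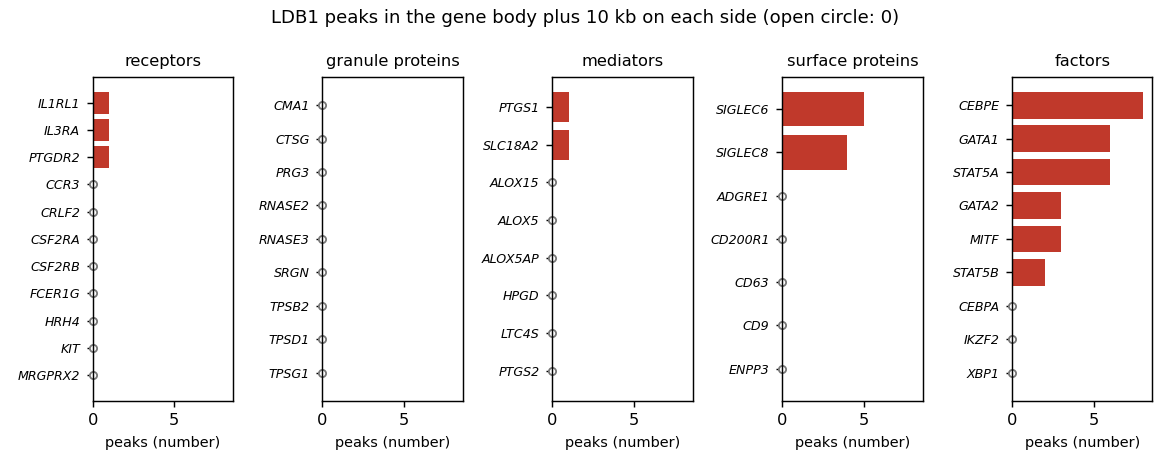
Number of LDB1 peaks in the body plus 10 kb on each side for 44 further genes, in 5 panels by role, with open circles for 0. The factors reach 8 peaks at CEBPE, and all 9 granule protein genes stand at 0.

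For comparison, 5 of 10 neutrophil granule genes (50%, interval 23.7 to 76.3%) and 6 of 10 megakaryocyte genes (60%, interval 31.3 to 83.2%) had a peak in such windows. These intervals overlap that of the 10 genes of basophils, mast cells and eosinophils. All of these lists were chosen with earlier results of these data known, which the intervals do not cover. The neutrophil genes had 4 distinct peaks, since AZU1 and PRTN3 shared 1, and the megakaryocyte genes had 15. The neutrophil count fell to 1 of 10 on gene bodies alone and to 0 of 10 with the longer 50% of all peaks, so it rests on short peaks near the genes. The median body was 5.54 kb for the neutrophil and 11.9 kb for the megakaryocyte genes. No RNA was measured in this series, so the markers cannot be checked as expression.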

How the data were processed

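The authors made 2 CUT&Tag libraries from NB4, for LDB1 and for IgG. Per the labels, reads were aligned to hg38 with Bowtie2 2.4.4 and peaks were called with MACS3 3.0, on fragments and with a limit on the q-value per the methods. Whether the IgG library served as control, and whether duplicates or problem regions were removed, is not given in the sources used here. A call without control could hold more open or repeated regions. For every peak the authors deposited 2 positions, counted from 1, and its length in bp. Peak names carry LDB1, and only the peaks of the LDB1 library were analysed here.

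Genes came from GENCODE release 44 and sequence from hg38, the build of the peaks. Distances ran from the peak midpoint to the TSS of the canonical transcript. Motifs were searched on both strands, and intervals are Wilson 95% intervals. Words of 31 bases were counted in chromosomes 1 to 22, X and Y. Counting was tested on simulated data. A stretch of sequence in the long HDC peak, which holds most of its motifs, is not reported here. The rule for named genes took the 10 members, their neighbours, the genes nearest their peaks and up to 3 genes of each role list with most peaks. KIT, FCER1G and the 6 further factors were named outside it, after their values were seen. Members and lists were chosen with earlier results of these data known. The ETS motif was searched too and was in 0 of the 4 central windows and 1 of the 4 whole peaks. Alternatives were other gene windows and motif windows, merged peaks, the longer 50% of peaks, midpoints, a repeat filter, other starts and a spacing of 9 bases. Tools were pysam 0.24.0, numba 0.67.0, SciPy 1.17.1 and pandas 2.3.3 with numpy 2.4.6 in Python 3.11.15, and matplotlib 3.10.9.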

Additional observations from a re-analysis of the deposited data

How the results depend on the processing

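No paired analysis was possible because the result comes from no test. Of the values under alternatives for 9 main results, 51 stayed close to the reported value and 18 did not. Close means within 1.5 times for counts, lengths, distances and densities, and within the counting interval for shares of genes or peaks. On gene bodies alone and with 3 kb on each side, 1 of the 10 genes (HDC) had a peak, while the share of protein-coding genes was 16.5% and 19.7%. With 50 kb on each side there were 10 peaks with a median length of 381.5 bp and a median distance of -8812 bp from the TSS, 44.8% of protein-coding genes and 21 of the wider list had a peak, and 3 of the 10 genes did. Merging peaks less than 1 kb apart left 2 peaks with a median length of 2207 bp, a median distance of -440 bp and 4.82 per Mb. The median distance, 4090 bp downstream as reported, thus changed sign with these 2 settings, and it was 1678 bp to the nearest start of any transcript. The GATA motif was in 4 of 4 peaks with windows of 400 bp and over the whole peak. The share of protein-coding genes was 16.3% with the longer 50% of peaks, where 2 of the 10 genes still had one, so that the members were then above all genes and not below. It was 23.6% with peaks of unique centre. For 7 gene lists, 40 values stayed within 1.5 times and 9 did not. Depth and peak height are unknown, so a missing peak says only that none was called.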
